A study of Caenorhabditis elegans with 6 samples.

Results

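Animals break down propionate by a route that needs vitamin B12, and Caenorhabditis elegans has in addition a B12-independent route called the propionate shunt. The data described here are the read counts of 10 genes of these routes, chosen by their identifiers, out of 21951 genes in the count table. Of the 10, 6 belong to the shunt (acdh-1, acdh-2, ech-6, hach-1, hphd-1 and alh-8) and 4 to the B12-dependent route (pcca-1, pccb-1, mce-1 and mmcm-1). All 10 had enough reads to be tested, as did 14705 genes in all. RNA came from whole wild-type young adults, described as gravid, in 6 poly(A)-selected libraries. There were 3 libraries of control animals and 3 of animals given ethyl carbamate at 100 mM for 24 h, and the design text calls the replicates biological. Ethyl carbamate, or urethane, is a toxic ester found in fermented food and drink. The control titles begin with the letters EV, which the labels do not explain, and neither the bacterial food nor its vitamin B12 content is stated in the labels.

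Propionyl-CoA is left over when valine, isoleucine, methionine, threonine and odd-chain fatty acids are broken down, and its build-up is toxic. In the B12-dependent route, a biotin-bearing carboxylase turns it into methylmalonyl-CoA, an epimerase changes the form of that product, and a mutase that carries adenosylcobalamin, a form of vitamin B12, turns it into succinyl-CoA. In worms short of vitamin B12 the shunt is switched on at the level of transcription. It oxidises propionyl-CoA stepwise through acrylyl-CoA, 3-hydroxypropionyl-CoA, 3-hydroxypropionate and malonic semialdehyde to acetyl-CoA. The acdh-1 gene is known in this animal as a reporter of the vitamin B12 state of the diet, being high when the vitamin is scarce.

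All 6 shunt genes were lower in ethyl carbamate, by 1.27-fold to 30.8-fold, whereas in the B12-dependent route 1 gene was higher, 1 was lower and 2 were not called. Calls are those of edgeR's quasi-likelihood test with Benjamini-Hochberg adjustment over all tested genes at 0.05. The exposure moved much of the transcriptome: 76.3% of tested genes were called, 36.3% as lower and 40.0% as higher, so a call in itself says little about these genes. A fall of at least 2-fold was rarer, at 3.34% of tested genes, and 5 of the 6 shunt genes were among them. The least of these 5, ech-6, came short of 2-fold under 3 alternatives, with a log2 fold change of −0.86 with scaling by library size, −0.94 among genes with FPKM of at least 5 and −0.89 on quantile-normalized FPKM. The median log2 fold change was −1.86 over the shunt genes and −0.03 over the genes of the B12-dependent route, against 0.05 over all tested genes. The 10 genes were selected with earlier results of these data known, so these medians describe them and no test was made over the set.

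**Figure D1:**
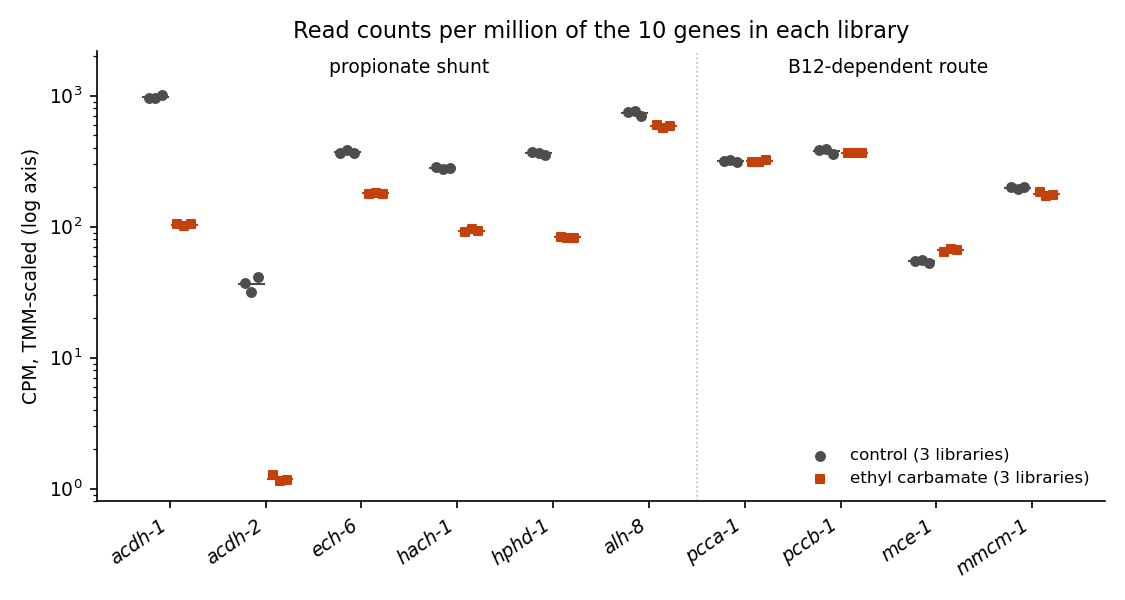
Counts scaled to library size (CPM, on a log axis) of the 10 genes in each of the 6 libraries; points are libraries and short lines are group means. The acdh-1 points lie at 955 to 1009 CPM in the controls and at 100.4 to 104 CPM in ethyl carbamate, while the pcca-1 points of both groups lie between 309 and 322 CPM.

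The libraries held 19026133 to 22416213 counts in the controls and 20176242 to 21258740 in ethyl carbamate. Fold changes leaned with abundance: the median log2 fold change of all tested genes was −0.25 at a log2 CPM of 6 to 8 and −0.38 at 8 to 10. In the range of 6 to 8 lay hach-1, hphd-1 and mmcm-1, and in that of 8 to 10 acdh-1, ech-6, alh-8, pcca-1 and pccb-1. The genes acdh-2 and mce-1 lay at 4 to 6, where the median was −0.04. Each gene of the B12-dependent route had a log2 fold change above the median of its range. Marker genes moved as well, where 36.3% of all tested genes were called lower and 40.0% higher. All 6 germline markers were lower, and their summed level went from 5819 to 6215 CPM in the controls to 4420 to 4512 CPM in ethyl carbamate. With scaling by library size or among genes with FPKM of at least 5, 5 of them were lower, and on quantile-normalized FPKM 5 were lower and 1 higher. By log2 fold change in the main analysis, pgl-3 (−0.85), glh-1 (−0.59) and gld-1 (−0.80) fell by more than the median of their range. The germline markers pgl-1 (−0.33), mex-5 (−0.54) and cpg-1 (−0.20) fell by less. Above a log2 CPM of 10, where mex-5 and cpg-1 lay, that median was −0.63. Of 6 epidermis markers 5 were higher, with sums of 228 to 232 CPM and 388 to 405 CPM. Of 7 intestine markers, the tissue where acdh-1 is mainly known to be active, 4 were higher and none was called lower (2 were lower on quantile-normalized FPKM), with sums of 568 to 606 CPM and 725 to 797 CPM. No marker was at 0 in all libraries. The part of these shifts in the results below was not tested. In RNA of whole animals, fewer cells of a type and less RNA per cell cannot be told apart.

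The shunt opens with acdh-1 (C55B7.4, chromosome I, 6497438 to 6499316, plus strand), which encodes the acyl-CoA dehydrogenase that makes acrylyl-CoA from propionyl-CoA. Positions are given as deposited, on a genome build that the labels do not state. Its counts, as CPM on TMM-scaled library sizes, were 955, 957 and 1009 in the 3 control libraries. In the 3 ethyl carbamate libraries they were 103.9, 100.4 and 104.0. Every exposed library lay far below every control library. The fall was 9.48-fold (95% interval 8.90 to 10.1), a log2 fold change of −3.24 ± 0.04 (standard error; edgeR adjusted p = 1.85e-22). Among the 14705 tested genes ordered by fold change, acdh-1 held place 41 from the lowest. By deposited FPKM (fragments scaled by gene length and library, a level per length) it went from place 182 to place 1964 among the 21951 genes of the table.

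Its paralogue acdh-2 (C17C3.12, chromosome II, 5545620 to 5547490, minus strand) had the largest fold change of the 10 genes and the lowest level. The control libraries held 650, 656 and 877 reads and the ethyl carbamate libraries 27, 26 and 26. The 3 exposed libraries were alike, and control replicate 3 was the highest of the controls, with a coefficient of variation of 13.1% in CPM over that group. The level fell from 36.7 ± 4.79 to 1.19 ± 0.07 CPM (mean ± SD over n = 3 libraries, as for all such pairs in the text), which is 30.8-fold with a 95% interval of 25.3 to 37.4 (log2 fold change −4.94, standard error 0.14, edgeR adjusted p = 9.52e-18). From pooled reads, 2183 against 79, the fall was 27.1-fold with an exact counting interval of 21.7 to 34.4, which covers counting error only. On the log2(FPKM + 1) scale, whose pseudocount exceeds its exposed level, its log2 fold change was −3.74. It held place 18 from the lowest.

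The labels do not state how reads that match both paralogues were treated. The acdh-2 reads made up 3.30% to 4.08% of the acdh-1 reads in the controls and 1.11% to 1.22% in ethyl carbamate. If the highest exposed share were applied to the control reads of acdh-1, 203 to 262 reads per control library would be listed under acdh-2, where 650 to 877 were. Beyond that share, 414 to 615 acdh-2 reads per control library would remain. The FPKM ratio of acdh-1 to acdh-2 was 31.1, 36.7 and 29.8 in the controls and 99.7, 106.6 and 109.2 in ethyl carbamate, so acdh-2 lost the larger part of its level.

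The middle steps are run by ech-6 (T05G5.6, chromosome III, 9751440 to 9752883, minus strand), an enoyl-CoA hydratase gene, and hach-1 (F09F7.4, chromosome III, 5555404 to 5557318, plus strand), a hydroxyacyl-CoA hydrolase gene. The human counterparts of both enzymes also act in valine breakdown. For ech-6 the controls had 366, 382 and 367 CPM and the exposed libraries 178, 181 and 179 CPM. The groups did not overlap, and the fall was 2.07-fold (95% interval 1.96 to 2.18, edgeR adjusted p = 6.46e-16). For hach-1 the values were 284, 277 and 278 CPM against 91.6, 95.1 and 93.1 CPM, again with no overlap. Its fall was 3.00-fold (2.84 to 3.16, edgeR adjusted p = 1.03e-18).

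The next enzyme, which oxidises 3-hydroxypropionate, is encoded by hphd-1 (Y38F1A.6, chromosome II, 12994358 to 12996344, minus strand). Its CPM was 372, 363 and 352 in the controls and 83.5, 82.5 and 81.7 in ethyl carbamate. The exposed libraries lay below all controls, with a fall of 4.39-fold (4.15 to 4.65), a log2 fold change of −2.13 ± 0.04 (standard error; edgeR adjusted p = 1.94e-20). It held place 87 from the lowest of all tested genes, hach-1 place 190 and ech-6 place 434.

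The last step is run by the aldehyde dehydrogenase of alh-8 (F13D12.4, chromosome II), whose human counterpart likewise acts in valine breakdown. The alh-8 counts were 754, 763 and 696 CPM in the controls and 594, 563 and 588 CPM in ethyl carbamate. The groups did not overlap, but the fall was only 1.27-fold (1.19 to 1.35), a log2 fold change of −0.34 ± 0.04 (standard error; edgeR adjusted p = 4.13e-07). The median of genes of like abundance, −0.38, was of the same size, so the alh-8 value does not stand out from other abundant genes. With scaling by library size its log2 fold change was −0.15, also called (edgeR adjusted p = 0.000864). The deposited span of alh-8, 11728949 to 11729990 on the plus strand, is shorter than its deposited length of 1889 bases and ends 1208 bases before the gene's end in the WBcel235 annotation. A gene on the opposite strand, F13D12.8, overlaps it there, and went from 45 to 54 reads per control library to 148 to 170 per exposed library, against 12686 or more for alh-8.

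**Figure D2:**
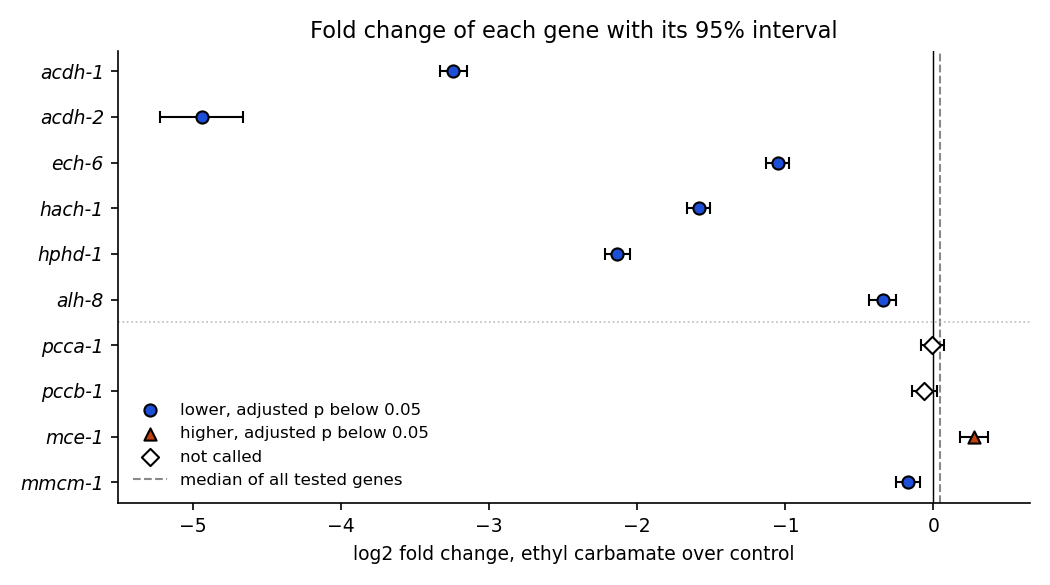
Log2 fold change of each gene, ethyl carbamate over control, with its 95% interval from edgeR; filled markers passed the adjusted p of 0.05, and the dashed line is the median of all tested genes, 0.05. The shunt genes spread from −4.94 (acdh-2) to −0.34 (alh-8), and the genes of the B12-dependent route lie between −0.17 and 0.27.

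The shunt genes thus fell by unequal amounts. Ordered by fold change they run acdh-2, acdh-1, hphd-1, hach-1, ech-6 and alh-8, and the 95% intervals of neighbours in this order did not overlap. The order does not follow the order of the reactions after the opening step, since hphd-1 acts after ech-6 and hach-1 and fell more than either. The human counterparts of the 3 genes with the smallest falls, hach-1, ech-6 and alh-8, also serve valine breakdown. Whether that role bears on the size of the falls was not tested.

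In the B12-dependent route, propionyl-CoA carboxylase is made of 2 kinds of subunit, encoded by pcca-1 (F27D9.5, chromosome X, 7657518 to 7660988, minus strand), which carries biotin, and pccb-1 (F52E4.1, chromosome X, 3089496 to 3092838, plus strand). The pcca-1 counts were 317, 321 and 309 CPM in the controls and 309, 312 and 322 CPM in ethyl carbamate. The groups overlapped and the log2 fold change was −0.0067 (95% interval −0.08 to 0.07, edgeR adjusted p = 0.875). For pccb-1 the values were 384, 393 and 358 CPM against 362, 363 and 362 CPM. They overlapped as well, at a log2 fold change of −0.06 (−0.15 to 0.02, edgeR adjusted p = 0.170). The intervals leave room for a fall of pcca-1 of up to 1.06-fold and of pccb-1 of up to 1.11-fold.

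These 2 small differences turned with the scaling. With scaling by library size, which moved the median of all genes up by 0.19, the log2 fold changes were 0.18 for pcca-1 and 0.13 for pccb-1, and both were called higher (edgeR adjusted p = 9.01e-05 and 0.00299). With median-ratio scaling pccb-1 was called lower, at −0.10 (edgeR adjusted p = 0.042), as it was without control replicate 3 (−0.11, edgeR adjusted p = 0.0139). In the authors' deposited table pccb-1 has a log2 fold change of −0.115 and an adjusted p of 0.014, where 48.8% of all listed genes have an adjusted p under 0.05. The 2 subunit genes kept near step with each other whatever the scaling. Their FPKM ratio, pcca-1 over pccb-1, was 0.826, 0.818 and 0.865 in the controls and 0.854, 0.860 and 0.891 in ethyl carbamate. The ranges overlap. The gene wrt-2, on the opposite strand, overlaps pccb-1 in the annotation and went from 84 to 145 reads per control library to 1076 to 1094 per exposed library, against 6699 to 8261 for pccb-1. The strand setting of the counting is not known here, and the part of wrt-2 reads in the pccb-1 value was not tested.

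The epimerase is encoded by mce-1 (D2030.5, chromosome I, 7582104 to 7583368, plus strand) and the B12-dependent mutase by mmcm-1 (ZK1058.1, chromosome III, 3903114 to 3907687, minus strand). The mce-1 counts were 55.1, 55.6 and 53.1 CPM in the controls and 64.5, 67.1 and 66.4 CPM in ethyl carbamate. It was the only 1 of the 10 genes that rose, by 1.21-fold (95% interval 1.13 to 1.29, edgeR adjusted p = 1.89e-05), with every exposed library above every control. It was called higher in all 16 processing alternatives. For mmcm-1 the values were 199, 194 and 200 CPM against 183, 170 and 174 CPM. The groups did not overlap and the fall was 1.13-fold (1.06 to 1.19, edgeR adjusted p = 0.000493). That call was lost with scaling by library size, where the log2 fold change was 0.02 in place of −0.17 (edgeR adjusted p = 0.634). It was also lost among genes with FPKM of at least 5 (−0.06, edgeR adjusted p = 0.140) and on quantile-normalized FPKM (0.017, limma adjusted p = 0.710).

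In all, 8 of the 10 genes had control and exposed libraries that did not overlap in CPM, a pattern met in 77.8% of all tested genes. Of these 8, 7 were lower in ethyl carbamate, as were 37.1% of tested genes, and mce-1 was higher, as were 40.8%. The log2 fold changes of the mutase gene and of both carboxylase subunit genes were smaller than the 0.19 by which the scaling choice moved all genes. Those of the 5 shunt genes other than alh-8 were at least 5 times that size.

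**Figure D3:**
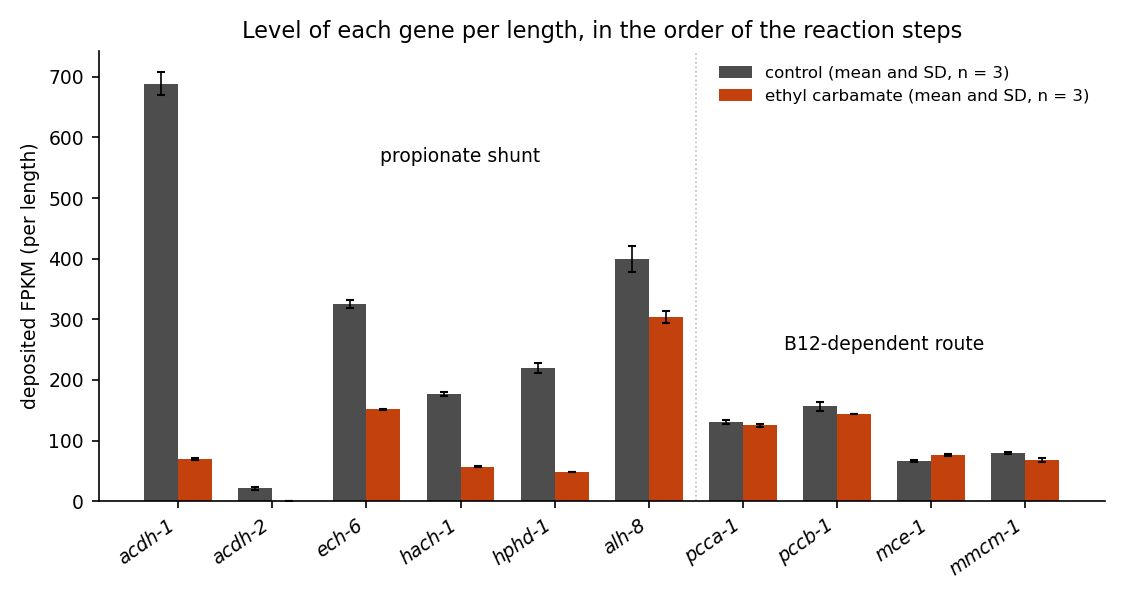
Level per length (deposited FPKM) of the 10 genes in the order of the reaction steps; bars are means and error bars SD of 3 libraries per group. In the controls acdh-1 is the highest at 688, and in ethyl carbamate alh-8 is the highest at 303.

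Levels per length, in deposited FPKM, show how the makeup of the 2 routes changed. In the controls the order from the top was acdh-1 (688 ± 19.1), alh-8 (399 ± 21.2), ech-6 (325 ± 6.86), hphd-1 (220 ± 7.63) and hach-1 (177 ± 3.64), followed by the 4 genes of the B12-dependent route at 65.8 to 156 and by acdh-2 at 21.4 ± 2.79. No neighbours in this order overlapped. Each shunt gene other than acdh-2 thus lay above every gene of the B12-dependent route in control animals.

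In ethyl carbamate the FPKM order was alh-8 (303 ± 9.71), ech-6 (151 ± 0.84), pccb-1 (144 ± 0.38), pcca-1 (125 ± 2.66) and mce-1 (76.7). Below them came acdh-1 (70.0 ± 1.60) and mmcm-1 (67.9 ± 2.94), whose ranges overlapped, then hach-1 (56.9 ± 0.87), hphd-1 (48.2 ± 0.70) and acdh-2 (0.67 ± 0.04). The gene of the opening shunt step, the most abundant of the 10 in controls, had come down to the level of the mutase gene. The summed FPKM of the 6 shunt genes was 1815 to 1847 in the controls and 619.5 to 639 in ethyl carbamate, and that of the 4 other genes 417 to 440 and 411 to 417. Of the shunt sum, acdh-1 made up 36.8% to 39.1% in the controls and 11.0% to 11.2% in ethyl carbamate, and alh-8 20.6% to 22.5% and 47.2% to 48.7%.

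Ratios of 2 genes within a library do not depend on how libraries are scaled. The FPKM ratio of acdh-1 to pcca-1, the entry genes of the 2 routes, was 5.15, 5.09 and 5.59 in the controls and 0.576, 0.550 and 0.552 in ethyl carbamate. Propionyl-CoA dehydrogenase transcripts thus stood above carboxylase transcripts in every control library and below them in every exposed library. The ratio of mce-1 to mmcm-1 was 0.830, 0.861 and 0.799 in the controls and 1.06, 1.19 and 1.15 in ethyl carbamate, so the epimerase gene gained on the mutase gene. Over the 4 ratios tested, two-sided exact permutation tests gave p = 0.1 for 3 ratios (Benjamini-Hochberg adjusted 0.133) and p = 0.3 for pcca-1 over pccb-1. With 3 libraries against 3, the smallest p such a test can give is 0.1.

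Beside the routes themselves, genes that handle vitamin B12 were lower in 6 of 7 cases and higher in 1, against 36.3% and 40.0% of all tested genes. Their median log2 fold change was −0.32 (edgeR). The largest change was in pmp-5, a peroxisomal-type ABC transporter gene whose human counterpart ABCD4 moves vitamin B12 out of the lysosome. Its reads were 1197, 1458 and 1371 in the controls and 321, 348 and 334 in ethyl carbamate, which in CPM is a fall from 67.7 ± 3.09 to 15.1 ± 0.23, of 4.49-fold (95% interval 4.12 to 4.90, edgeR adjusted p = 1.35e-17). The gene metr-1 encodes methionine synthase, the other enzyme that needs vitamin B12, and fell 1.85-fold from 304 ± 4.32 to 164 ± 8.28 CPM. The transporter gene mrp-5, whose product exports heme and has been tied to vitamin B12 transport in this animal, rose 1.75-fold from a level of 134 ± 5.84 CPM.

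The genes mmaa-1 and mmab-1 serve the cofactor of the mutase: the human counterpart of mmab-1 makes adenosylcobalamin and that of mmaa-1 guards its loading. They had log2 fold changes of −0.30 and −0.32, both called lower (edgeR adjusted p = 4.75e-07 and 0.000102). The mmaa-1 value was near the median of all tested genes at its abundance, −0.25 at a log2 CPM of 6 to 8. At the abundance of mmab-1, a log2 CPM of 4 to 6, that median was −0.04. For mmab-1 the call was lost with scaling by library size (−0.13 in place of −0.32, edgeR adjusted p = 0.0987). Over the 16 alternatives, 4 to 6 of the 7 genes were called lower.

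The nuclear receptor genes nhr-10 and nhr-68, whose products are known to switch on the shunt when propionate persists, had small differences. The nhr-10 counts were 30.5, 34.4 and 30.2 CPM in the controls and 26.8, 26.8 and 26.2 CPM in ethyl carbamate, a log2 fold change of −0.26 ± 0.07 (standard error; edgeR adjusted p = 0.00173). Those of nhr-68 were 34.8, 36.2 and 36.7 CPM against 29.9, 31.0 and 31.8 CPM, a log2 fold change of −0.22 ± 0.06 (standard error; edgeR adjusted p = 0.00251). The groups did not overlap for either gene, a pattern met in 77.8% of all tested genes, 37.1% being lower in ethyl carbamate. With scaling by library size neither was called, at −0.06 and −0.03 (edgeR adjusted p = 0.416 and 0.728), and neither was called among genes with FPKM of at least 5 (−0.15 and −0.11, edgeR adjusted p = 0.0534 and 0.102). The other two genes of this list were higher: nhr-114, a receptor tied to the methionine cycle, by a log2 fold change of 0.49, and mdt-15, a Mediator subunit gene, by 0.34. Transcripts of these regulators thus moved by less than those of acdh-1.

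The list of branched-chain amino acid breakdown was lower in 9 of its 10 tested genes and higher in 1. Breakdown of valine and isoleucine supplies propionyl-CoA, but the list is wider than that supply and also holds mccc-1, of leucine breakdown. Of all tested genes, 36.3% were called lower and 40.0% higher. The median log2 fold change of the list was −0.57. At the log2 CPM of its genes, the median of all tested genes was −0.25 (6 to 8) or −0.38 (8 to 10). The 9 falls and the 1 rise were counted under each of the 16 alternatives. The largest fall was in mccc-1, a subunit gene of the carboxylase of leucine breakdown, at 1.88-fold from 219 ± 1.55 to 117 ± 3.96 CPM. B0250.5 and bckd-1A, which encodes a subunit of the branched-chain keto acid dehydrogenase, had log2 fold changes of −0.80 and −0.74. The exception, bcat-1, encodes the aminotransferase that starts the breakdown, and rose by 0.56 on the log2 scale. The symbol mccc-2 found no match in the table.

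Propionyl-CoA carboxylase is 1 of a few enzymes that carry biotin. The other biotin carboxylase genes pyc-1 (pyruvate carboxylase) and mccc-1 fell by 0.90 and 0.91 on the log2 scale, and bpl-1, which encodes the ligase that attaches biotin, fell by 0.58. For pod-2, which encodes acetyl-CoA carboxylase, the log2 fold change was 0.12 and called higher in the main analysis (edgeR adjusted p = 0.0113), but it was not called with median-ratio scaling, DESeq2 or limma on log2 FPKM without quantile normalization, nor without control replicate 2, control replicate 3 or ethyl carbamate replicate 1. Beside these, in the main analysis, the values of pcca-1 (−0.0067) and pccb-1 (−0.06) were the nearest to 0. With median-ratio scaling pccb-1 was at −0.10.

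**Figure D4:**
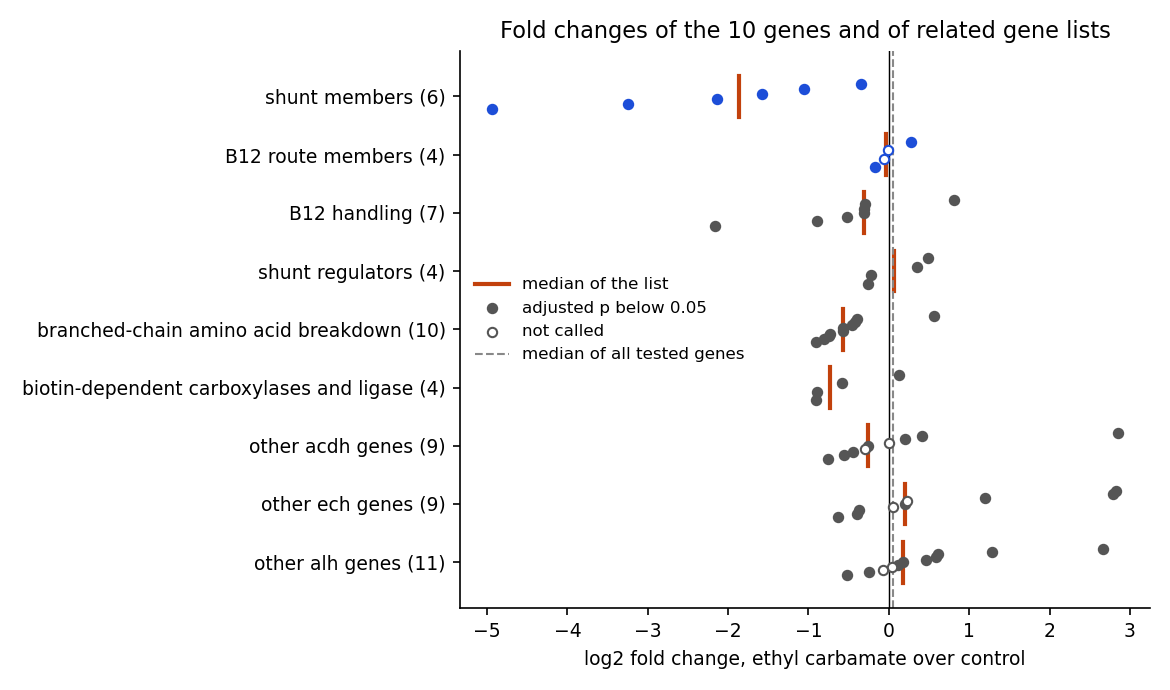
Log2 fold change, ethyl carbamate over control, of the 10 genes (blue) and of related lists (grey), with the number of tested genes in brackets; filled points passed the adjusted p of 0.05 and orange bars are medians. The shunt genes have a median of −1.86, and the lowest of the grey points is pmp-5 at −2.17.

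The paralogues of the shunt enzymes went both ways, as did all tested genes, of which 36.3% were called lower and 40.0% higher. Of 9 tested acyl-CoA dehydrogenase genes other than acdh-1 and acdh-2, 4 were lower and 3 higher, with log2 fold changes from −0.76 (acdh-3) to 2.86 (acdh-6). The acdh-6 reads went from 18 to 39 per library in the controls to 230 to 256 in ethyl carbamate. The remaining acdh-5 and acdh-8 had 5 reads or fewer in every library and were not tested. Of 9 enoyl-CoA hydratase family genes other than ech-6, 3 were lower and 4 higher. Among these, ech-9 was up 7.07-fold and ech-1.1 up 6.90-fold to 10.5 ± 0.72 CPM. The control libraries held few reads of them, 21 to 43 for ech-9 and 18 to 43 for ech-1.1. On quantile-normalized FPKM the log2 fold changes were 1.79 for ech-9 and 1.44 for ech-1.1, in place of 2.82 and 2.79. Of 11 aldehyde dehydrogenase genes other than alh-8, 2 were lower and 7 higher, and alh-5 rose 6.35-fold to 43.0 ± 1.19 CPM. With scaling by library size 1 was lower and 9 higher. The medians of the 3 families were −0.26, 0.20 and 0.17.

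**Figure D5:**
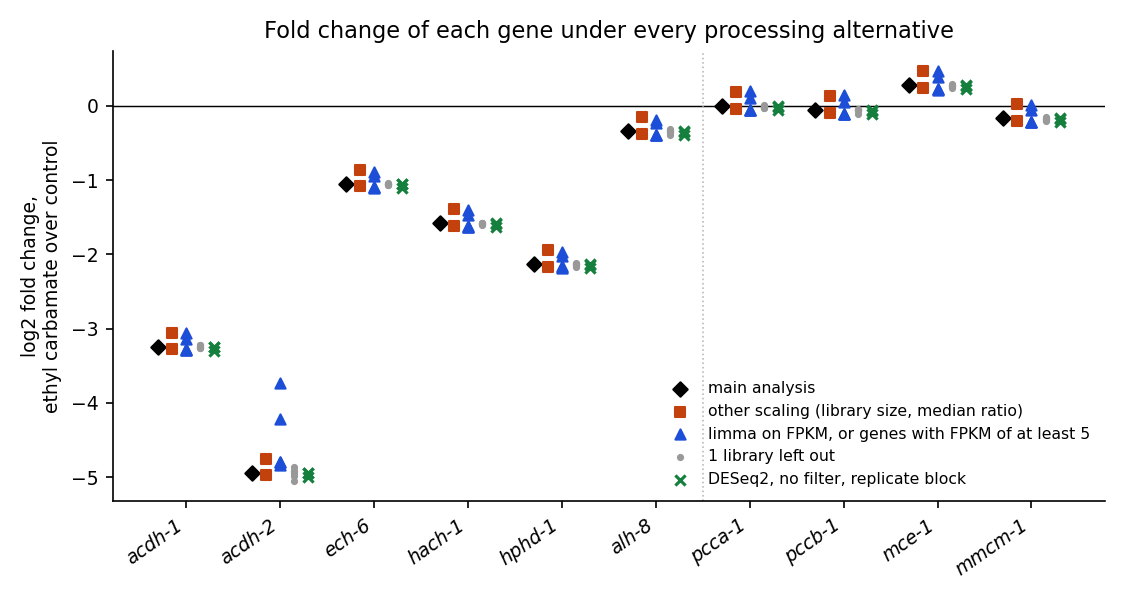
Log2 fold change of each gene, ethyl carbamate over control, in the main analysis and under the 16 processing alternatives. The values of acdh-1 stay between −3.30 and −3.05, while those of pcca-1, pccb-1 and mmcm-1 lie on both sides of 0.

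The calls of the 6 shunt genes held under each of the 16 alternatives, which included other scalings, DESeq2, limma on FPKM and each library left out. The log2 fold change ranged from −3.30 to −3.05 for acdh-1, from −2.19 to −1.94 for hphd-1, from −1.64 to −1.39 for hach-1 and from −1.10 to −0.86 for ech-6. For acdh-2 the range was −5.05 to −3.74 and for alh-8 −0.39 to −0.15. The authors' deposited table gives −2.19 for hphd-1 and −1.64 for hach-1.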

How the data were processed

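The table that the authors deposited holds raw read counts as whole numbers. It also holds normalized counts, which in this deposited table are a signal: each count over its library's size factor, 0.818 to 1.12. FPKM values, log2 fold changes and p-values by the authors complete it. The other deposited table, of FPKM, gave the same values for the 10 genes. The submitters' processing notes name DESeq2 1.20.0, StringTie 1.3.3, the aligner HISAT2 2.0.5 and the counter featureCounts 1.5.0-p3, and the design text DEGSeq. Genome build, strand setting and the handling of multiply matching reads are not stated in the labels. Coordinates are from the deposited table and gene overlaps from Ensembl's annotation of WBcel235. Symbols came from RefSeq locus tags (21580 genes) or Ensembl (10 genes).

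Here, edgeR 4.0.16 (R 4.3.3) compared the 2 groups over all 6 libraries, with TMM scaling, filterByExpr and a two-sided quasi-likelihood F test without covariates. P-values were adjusted by Benjamini-Hochberg over 14705 genes, with a threshold of 0.05. Standard errors and 95% intervals of fold changes are those implied by that F test. CPM uses TMM-scaled library sizes. Levels between genes were compared on FPKM. The members, lists and markers were chosen with earlier results of these data known. The text names all 10 members and nhr-10, nhr-68, metr-1, mmaa-1 and mmab-1. From each related list it names up to 3 called genes with the largest absolute change. Of the genes so chosen, acdh-12, ech-8, alh-10 and alh-4 are not described. Genes named as exceptions or remainders of small lists are bcat-1, pod-2, acdh-5 and acdh-8. The germline markers are also named. Alternatives were median-ratio and library-size scaling, DESeq2 1.42.0, no low-count filter, a filter keeping FPKM of at least 5 in 3 libraries, and limma 3.58.1 on log2 FPKM. The limma fits kept FPKM of at least 1 in 3 libraries and used pseudocounts of 0.1, 0.5 and 1 or quantile normalization. Further fits took the replicate number as a block or left out each library in turn. On simulated counts of 14705 genes for this comparison, the edgeR script found 52% of 50 genes changed by 1.25 times and 72% of 50 at 1.5 times. It found 92% of 50 at 2 times and 98% of 50 at 4 times, and made 7 false calls. No other genes were changed there, whereas 76.3% of tested genes were called in the data, so these rates need not hold for the data. Figures were drawn with matplotlib 3.10.9.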

Additional observations from a re-analysis of the deposited data

How the results depend on the processing

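The 6 shunt genes were called lower, and mce-1 higher, under each of the 16 alternatives. The count of all genes called lower was 5344 and fell to 3409 with library-size scaling; without 1 library it ran from 5143 to 5241, and higher calls from 5699 to 5823. In the B12-dependent route, called genes turned with the processing. Library-size scaling gave 3 higher and 0 lower. The higher calls were mce-1, pcca-1 (log2 fold change 0.18) and pccb-1 (0.13), and mmcm-1 at 0.020 was not called. Quantile-normalized FPKM also gave 3 and 0, with the same genes called. Values there were 0.20 for pcca-1, 0.14 for pccb-1 and 0.017 for mmcm-1, the last not called. Genes with FPKM of at least 5 gave 2 and 0. There mce-1 and pcca-1 (0.10) were called, and pccb-1 (0.046) and mmcm-1 (−0.062) were not. Lower calls were 2, with pccb-1 called, under median-ratio scaling (−0.097), DESeq2 (−0.11) and limma on log2 FPKM with each pseudocount (−0.11). Without 1 library, lower calls were 1 to 2, and log2 fold changes ran from −0.033 to 0.0046 for pcca-1 and from −0.11 to −0.042 for pccb-1. The cause of these turns was not tested. Of 304 further counts over related lists and markers, 289 stayed within 1.5 times.

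With the replicate number as a block, 5851 genes were higher and 5345 lower, and no call of the 10 genes changed. Same-numbered libraries did not deviate together (r of −0.006, −0.0042 and −0.012 across genes), so the numbers were not taken as pairs. Depth limits acdh-2 most, at 26 to 27 reads per exposed library.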

Other observations

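Replicate spread of the 10 genes in CPM was small: the coefficient of variation was 1.26% to 13.1% in the controls and 0.19% to 5.64% in ethyl carbamate, highest in both groups for acdh-2. The gene ins-13 lies on the same strand within the annotated span of acdh-2 and had 0 to 2 reads per library, against 26 or more for acdh-2.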
